A study of Mus musculus with 12 samples.

Results

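Small leucine-rich proteoglycans were followed in MC3T3-E1 cells, a mouse preosteoblast line derived from skull bone, as the cultures went from division to a mineralizing matrix. The 8 genes considered were Dcn, Lum, Omd, Bgn, Fmod, Ogn, Aspn and Prelp, each taken wherever a probe on the array was annotated with its current or an older symbol. A row was found for 7 of the 8, 1 row each, among 12817 named genes, and Prelp, which encodes prolargin, had none and was not analysed here. All cultures, those of Day 2 included, received the differentiation supplements that the labels call 8-glycerol phosphate and ascorbic acid, and total RNA was taken on Day 2 (log phase growth), Day 5 (growth arrest), Day 10 (differentiating osteoblasts) or Day 28 (mature osteoblasts). Each day had 3 arrays, 12 in all. Each array set Cy3-labelled cDNA of the cells against Cy5-labelled cDNA of 1 commercial mouse reference RNA, with no exchange of dyes. Values are log2 ratios of cells over reference, so a step of 1 is a doubling. The labels name 1 cell line and do not say whether a day's replicates were grown separately, and the p-values therefore measure only the spread between these arrays, which may be technical.

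Small leucine-rich proteoglycans are secreted proteins with a curved core of leucine-rich repeats that lies against collagen fibrils and limits how thick the fibrils grow. Decorin (Dcn) and biglycan (Bgn) carry chondroitin or dermatan sulfate chains, lumican (Lum), fibromodulin (Fmod) and osteomodulin (Omd) can carry keratan sulfate, and asporin (Aspn) carries no such chain. Several of them also bind growth factors of the TGF-beta family, and osteomodulin, also called osteoadherin, is known from mineralized tissue, where it binds integrins.

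The arrays were first compared over all 17504 rows. Day 5 replicate 2 and Day 10 replicate 3 stood apart, with a mean correlation to the arrays of the same day of 0.838 and 0.795, where the remaining 10 had 0.856 to 0.919. The ratio's direction is not stated by the labels. It was read from 17 measured mesenchymal genes and 19 genes of other lineages, by log2 ratios averaged over all arrays. The former had a mean of 1.29 (median 1.63, 13 above 0), the latter a mean of -0.64 (median 0.05, 11 above 0). Positive values were therefore taken as higher in the cells, which is likely rather than stated, and the opposite reading would turn every direction below. All 7 proteoglycans were also above 0, but as the genes under study they are no check of the direction. Osteoblast identity was checked on 7 of 10 listed markers, as Runx2, Bglap and Spp1 had no row. Their median log2 ratio on each array lay between 0.26 and 0.46 on Day 2 and between 1.75 and 2.57 on Day 28, with Sp7, a transcription factor of the osteoblast lineage, at 1.89 ± 0.82 on Day 2 (SD, n = 3). Mepe, a late osteocyte gene, stayed near the reference on every day (0.04 to 0.17). Phex, another of the 7 markers, was below the reference on every day, with day means of -0.79 to -0.42.

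Over the 4 days, 4 of the 7 proteoglycans changed and 3 did not pass the test. Lum, Omd and Fmod rose, Dcn had its highest mean on Day 10 and fell by Day 28, and Aspn, Ogn and Bgn were not called. The test was limma's F test for any difference among days, fitted on all rows and adjusted over all of them by the Benjamini-Hochberg method, with 0.05 as the threshold, and it called 5.32% of all rows. The adjusted p was 2.36e-04 for Omd, 3.02e-04 for Dcn, 0.0055 for Fmod and 0.0124 for Lum, and it was 0.174 for Bgn, 0.46 for Aspn and 0.967 for Ogn. Lum was no longer called by this test without Day 2 replicate 1, nor after quantile normalization, which gives every array the same distribution of values. A rise or fall below is a difference between days past the same threshold, given as the later day minus the earlier on the log2 scale with the fitted standard error (SE). In RNA of whole cultures, fewer cells that make a transcript and less of it per cell cannot be told apart.

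**Figure D1:**
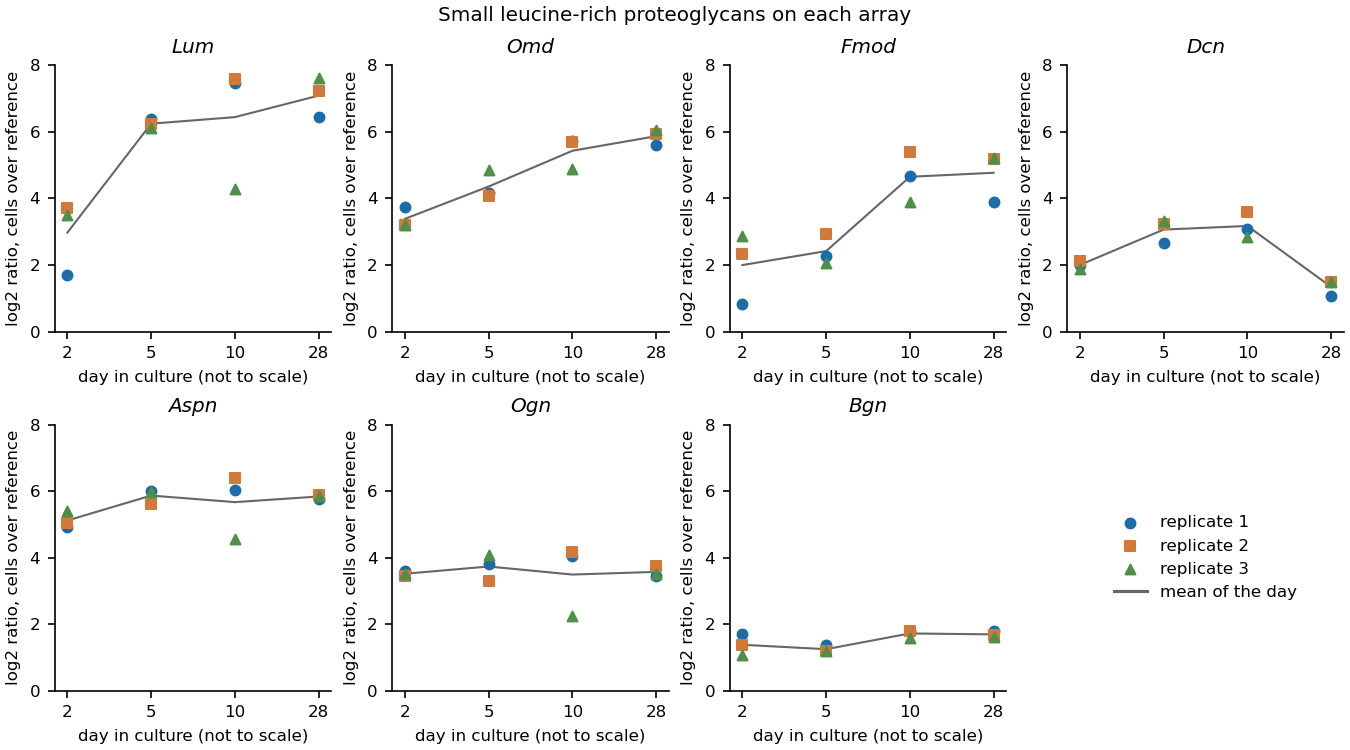
The plots show the log2 ratio of cells over reference (vertical axis) against the day in culture (horizontal axis, not to scale) for each measured proteoglycan, with a symbol for each of the 3 replicates and a line through the means. Lum, Omd and Fmod climb, Dcn drops between Day 10 and Day 28, and Day 10 replicate 3 is the lowest array of its day in all 7 plots.

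Lum, which encodes lumican, an organizer of collagen fibrils in cornea, skin and bone, had the largest difference of the 7 between Day 2 and Day 28. Its log2 ratios were 1.71, 3.70 and 3.51 on replicates 1, 2 and 3 of Day 2, 6.39, 6.24 and 6.11 on Day 5, 7.46, 7.59 and 4.28 on Day 10, and 6.43, 7.23 and 7.61 on Day 28. The later arrays lay above every Day 2 array, and 2 arrays were far below the others of their day, Day 2 replicate 1 and Day 10 replicate 3. Lum rose 17.3-fold from Day 2 to Day 28 (difference 4.12, SE 0.72, limma adjusted p = 0.00389) and 11.1-fold from Day 2 to Day 10 (3.47, adjusted p = 0.0228). The first of these calls held under each of 22 alternatives, with a difference of 2.80 and an adjusted p of 0.0415 after quantile normalization. The second was lost without any 1 of the Day 2 arrays, without Day 10 replicate 1 or replicate 2 (adjusted p = 0.0505 to 0.0887), and with only the arrays of those days. From Day 2 to Day 5 the difference was already 3.27 (SE 0.72, adjusted p = 0.0911), and it passed without Day 10 replicate 3 (adjusted p = 0.00332). Beyond Day 5 no step passed, with differences of 0.20 from Day 5 to Day 10 (95% interval -1.36 to 1.76) and 0.65 from Day 10 to Day 28 (-0.91 to 2.21).

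Omd, which encodes osteomodulin, had a higher mean on each later day. Its log2 ratios were 3.75, 3.20 and 3.21 on Day 2, 4.15, 4.06 and 4.85 on Day 5, 5.71, 5.71 and 4.88 on Day 10, and 5.62, 5.93 and 6.06 on Day 28. No array overlapped between Day 2, Day 5 and Day 10, though Day 10 replicate 3 exceeded the highest Day 5 array by only 0.03, and Day 28 overlapped Day 10. Omd rose 5.59-fold from Day 2 to Day 28 (difference 2.48, SE 0.26, limma adjusted p = 6.19e-05), 4.13-fold from Day 2 to Day 10 (2.05, adjusted p = 0.00143) and 2.85-fold from Day 5 to Day 28 (1.51, adjusted p = 0.00449). The single steps of 0.97 to Day 5 and 1.07 to Day 10 did not pass (adjusted p = 0.185 and 0.161). The second of these passed without Day 10 replicate 3 (1.35, adjusted p = 0.0304). Quantile normalization reduced the change from Day 2 to Day 28 to 1.19 (adjusted p = 0.00446) and ended the call from Day 5 to Day 28 (0.71, adjusted p = 0.0876).

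Fmod, which encodes fibromodulin, a regulator of collagen crosslinking and fibril growth, was higher on the last 2 days than on the first 2. Its log2 ratios were 0.81, 2.32 and 2.86 on Day 2, 2.27, 2.93 and 2.06 on Day 5, 4.68, 5.39 and 3.88 on Day 10, and 3.89, 5.20 and 5.22 on Day 28. All 6 arrays of Day 10 and Day 28 lay above all 6 of Day 2 and Day 5, and within each of these pairs of days the arrays overlapped. From Day 2 to Day 28 Fmod rose 6.83-fold (difference 2.77, SE 0.51, limma adjusted p = 0.00524), from Day 2 to Day 10 6.28-fold (2.65, adjusted p = 0.0152) and from Day 5 to Day 28 5.11-fold (2.35, adjusted p = 0.0175). The step from Day 5 to Day 10 itself was 2.23 (SE 0.51, adjusted p = 0.114). The call from Day 2 to Day 28 held under all 22 alternatives, with a difference of 1.79 and an adjusted p of 0.0498 after quantile normalization. The call from Day 2 to Day 10 was lost without Day 10 replicate 1 or 2 and with only the arrays of those days (adjusted p = 0.0512 to 0.0635), and that from Day 5 to Day 28 without Day 5 replicate 1 or 3 or Day 28 replicate 2 or 3 (0.0662 to 0.0847) and after quantile normalization.

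Dcn, which encodes decorin, a fibril-binding proteoglycan that sequesters TGF-beta, fell late in culture. From Day 10 to Day 28 no other member passed in either direction. Its log2 ratios were 1.99, 2.13 and 1.88 on Day 2, 2.65, 3.22 and 3.32 on Day 5, 3.09, 3.58 and 2.85 on Day 10, and 1.06, 1.48 and 1.48 on Day 28. Every Day 5 and Day 10 array was above every Day 2 array, and every Day 28 array was below them all. Dcn rose 2.25-fold from Day 2 to Day 10 (difference 1.17, SE 0.21, limma adjusted p = 0.0113) and differed by 1.06 from Day 2 to Day 5 (adjusted p = 0.0617), a difference that passed without Day 5 replicate 1 or without Day 10 replicate 2 or 3 (adjusted p = 0.0272 to 0.0463). From Day 10 to Day 28 it fell 3.56-fold (difference -1.83, SE 0.21, adjusted p = 0.00106), and from Day 5 to Day 28 3.30-fold (-1.72, adjusted p = 4.14e-04). Both falls held under each of 22 alternatives, with differences of -1.99 to -1.63 and -1.97 to -1.58. The rise to Day 10 was lost after quantile normalization (0.77, adjusted p = 0.0965) and without Day 2 replicate 3 (1.11, adjusted p = 0.0583). Day 28 against Day 2 gave -0.66 (adjusted p = 0.1), which passed after quantile normalization (-1.11, adjusted p = 0.0103), with array weights (adjusted p = 0.047) and with only the arrays of those days (adjusted p = 0.0278).

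Aspn, Ogn and Bgn passed no comparison between days. Aspn, which encodes asporin, an inhibitor of TGF-beta signalling in cartilage, had log2 ratios of 4.92, 5.04 and 5.40 on Day 2, 6.01, 5.60 and 5.99 on Day 5, 6.05, 6.40 and 4.56 on Day 10, and 5.77, 5.88 and 5.86 on Day 28. Its Day 28 arrays were above its Day 2 arrays without overlap, and the difference was 0.72 (95% interval -0.03 to 1.47, limma adjusted p = 0.296). Without Day 10 replicate 3 this difference passed (adjusted p = 0.0167), as did that from Day 2 to Day 10, at 1.11 (adjusted p = 0.00572), while quantile normalization turned the former to -0.36 (adjusted p = 0.429). Ogn, which encodes osteoglycin or mimecan, had log2 ratios of 3.59, 3.44 and 3.52 on Day 2, 3.82, 3.29 and 4.09 on Day 5, 4.05, 4.18 and 2.25 on Day 10, and 3.46, 3.76 and 3.50 on Day 28. Day 28 and Day 2 overlapped, with a difference of 0.06 (-0.78 to 0.89, adjusted p = 0.963), and after quantile normalization it became -1.05 (adjusted p = 0.0407). Bgn, which encodes biglycan, a matrix proteoglycan needed for normal bone mass in mice, had log2 ratios of 1.69, 1.37 and 1.08 on Day 2, 1.36, 1.19 and 1.20 on Day 5, 1.79, 1.81 and 1.57 on Day 10, and 1.80, 1.67 and 1.61 on Day 28. Its Day 10 and Day 28 arrays were above all Day 5 arrays, by differences of 0.47 (0.14 to 0.81, adjusted p = 0.371) and 0.44 (0.11 to 0.78, adjusted p = 0.146).

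By comparison, Day 28 against Day 2 called 3 of the 7 members higher and none lower, where 5.69% of all rows were called (3.68% higher, 2.01% lower), and the median difference of the members was 0.72 against -0.01 for all rows. Quantile normalization called 5, 3 higher and 2 lower (Dcn and Ogn), and the members' median became -0.09. Day 10 against Day 2 called 4 of 7, all higher, where 2.59% of all rows were called (1.53% higher). Day 28 against Day 5 called Omd and Fmod higher and Dcn lower, where 4.71% of rows were called (2.8% higher, 1.91% lower). Between consecutive days, Day 28 against Day 10 called Dcn alone, lower, where 0.84% of rows were called (0.131% lower). Day 5 against Day 2 called 0 of 7 in limma with 4 at an unadjusted p under 0.05, and Day 10 against Day 5 called 0 of 7 with 3 at an unadjusted p under 0.05. Of all 17504 rows, 1773 and 1573 had an unadjusted p under 0.05 in these steps. In these last comparisons 0.337% and 0.149% of all rows were called, the latter made up of 0.12% higher and 0.0286% lower. Comparisons that share a day share its arrays, so their counts are not independent.

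**Figure D2:**
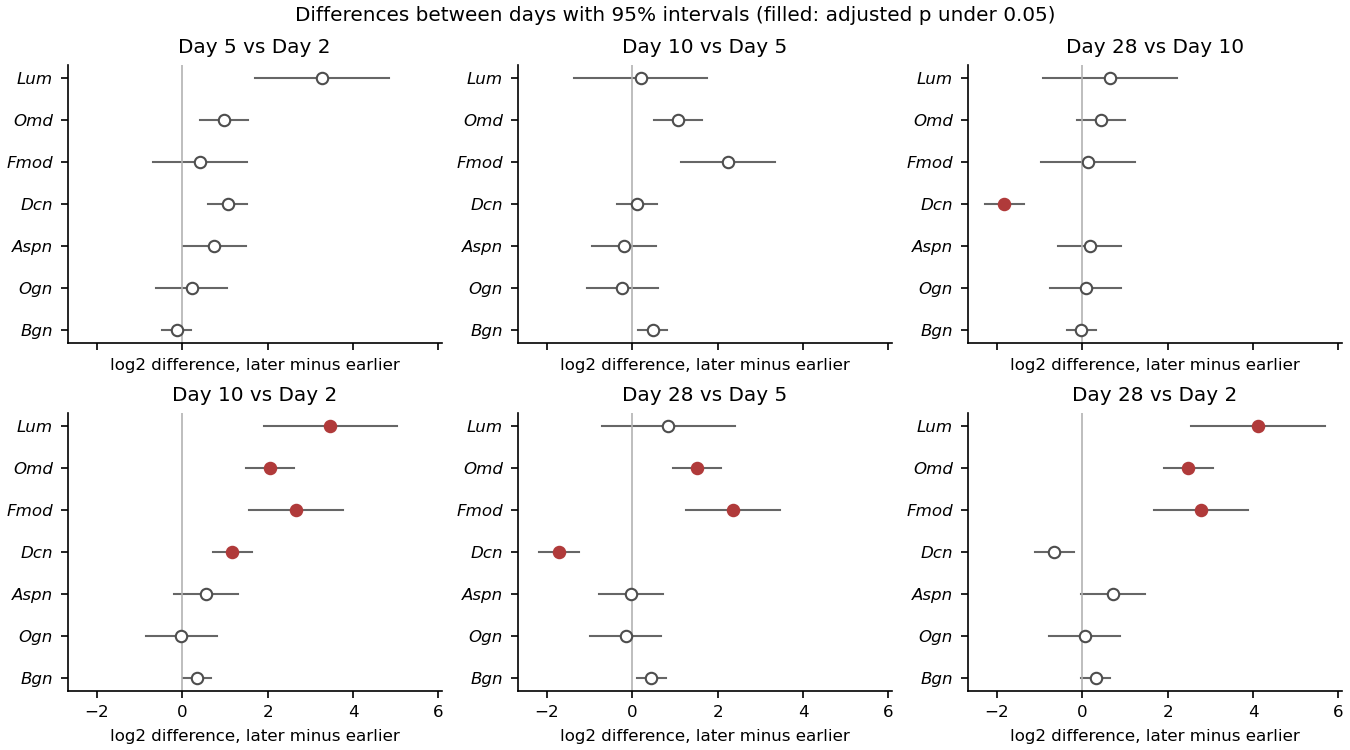
The panels give the log2 difference between days (horizontal axis, later minus earlier) for the 7 measured proteoglycans in 6 comparisons, with bars for 95% intervals of the limma fit and filled points where the adjusted p was under 0.05. Dcn is the 1 member to the left of 0 among the filled points, at -1.83 for Day 28 against Day 10 and -1.72 for Day 28 against Day 5.

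Dcn was also set against the rising members within each array, where a shift of the whole array cancels. The arrays had already been centred on their medians, and a difference in their spread does not cancel. From Day 10 to Day 28 Dcn was the only one of these 4 genes to pass, so over that interval the ratios rest mainly on its fall. For Dcn minus Omd the mean was -1.39 ± 0.35 on Day 2 (SD, n = 3, as for all means here). It was -1.29 ± 0.39 at Day 5, -2.26 ± 0.32 at Day 10, and -4.53 ± 0.07 at Day 28. The 3 values of Day 28 lay between -4.58 and -4.44, and the lowest value of the other days was -2.63. Dcn minus Fmod went from 0.00 ± 1.09 on Day 2 to 0.65 ± 0.54 on Day 5, then to -1.48 ± 0.40 on Day 10 and -3.43 ± 0.52 on Day 28, and Dcn minus Lum from -0.97 ± 1.08 on Day 2 to -3.18 ± 0.49 on Day 5, -3.27 ± 1.61 on Day 10 and -5.75 ± 0.38 on Day 28. In all 3 ratios the Day 28 arrays were below every array of Day 2, Day 5 and Day 10. The same held against Bgn, Ogn and Aspn, which were not called, so it is not particular to the rising members. Dcn minus these had Day 28 means of -0.35 ± 0.34, -2.23 ± 0.20 and -4.49 ± 0.19. These pairs were chosen after their values were seen and were not tested. The differences are changes of 1 ratio over time and say nothing of which transcript was more abundant.

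**Figure D3:**
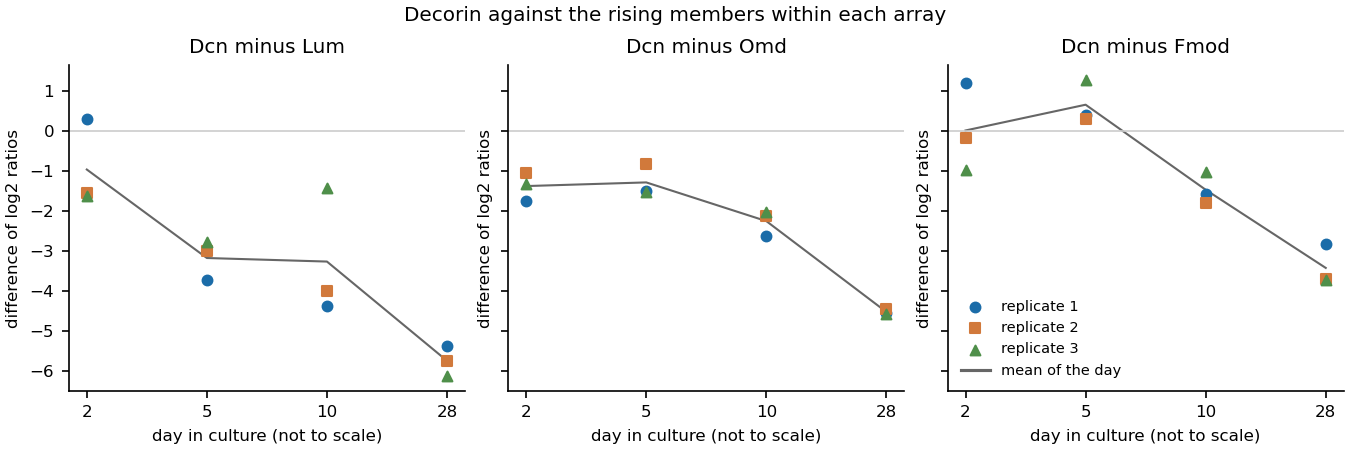
The panels show, for each array, the log2 ratio of Dcn minus that of Lum, Omd or Fmod (vertical axis) against the day in culture (horizontal axis, not to scale), with a symbol per replicate and a line through the day means. The Day 28 points are the lowest of each panel, at -5.75, -4.53 and -3.43 on average.

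Arrays of the same day differed for several members at once on Day 10 and Day 28, and in mixed directions on Day 2 and Day 5. Day 10 replicate 3 was the lowest array of its day for 7 of 7 members, with deviations from the day's mean of -0.15 for Bgn, -0.32 for Dcn, -0.55 for Omd, -0.77 for Fmod, -1.11 for Aspn, -1.25 for Ogn and -2.16 for Lum. Day 28 replicate 1 was the lowest for 6 of 7, with a median deviation of -0.25. The share of all rows that were lowest on these arrays is not given here, so the counts cannot be read as particular to the proteoglycans. On Day 2 replicate 1, Lum and Fmod deviated by -1.26 and -1.18 while Omd was higher by 0.37. On Day 10 replicate 3 the median of the 9 cell division genes was -2.67 against -0.94 and -0.89 on replicates 1 and 2, and that of the osteoblast markers was 0.74 against 2.11 and 1.68. Their part in the low values of the proteoglycans was not tested. Without that array and Day 5 replicate 2, a setting added once the arrays had been compared, 6 of 7 members passed the F test (all but Bgn). Day 28 against Day 2 called 4 (Lum, Omd, Fmod and Aspn), and Day 10 against Day 2 called 6, with Aspn and Ogn added (Ogn 0.60, limma adjusted p = 0.0364). Calls rose over the whole array in that setting, from 931 to 1764 rows in the F test, from 996 to 1704 for Day 28 against Day 2 and from 454 to 963 for Day 10 against Day 2.

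**Figure D4:**
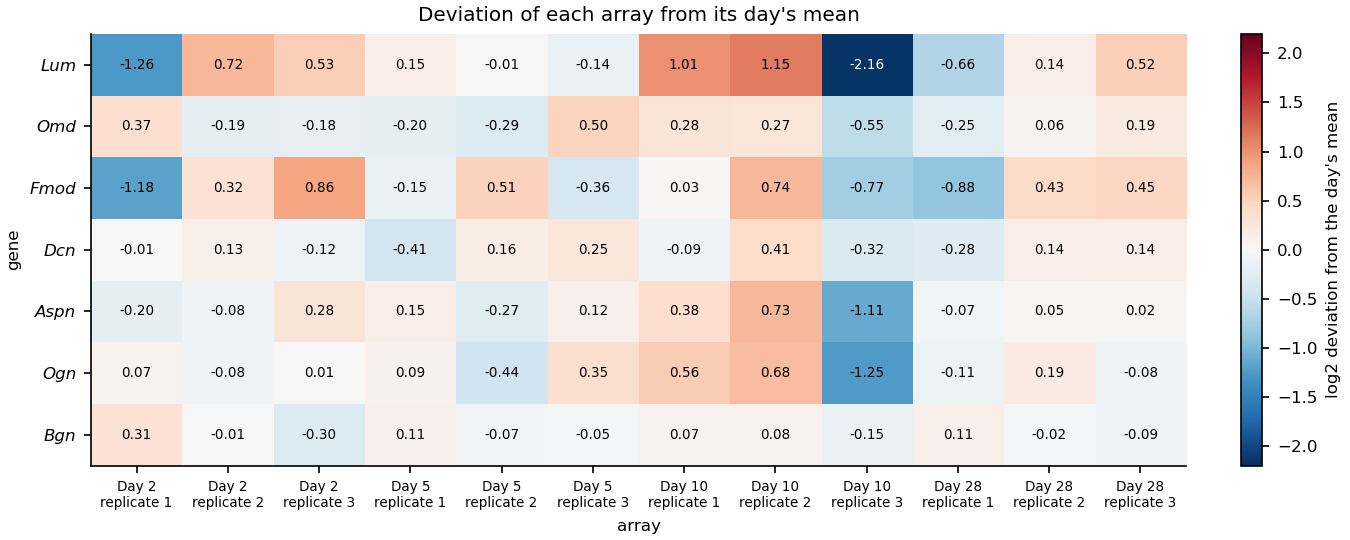
The heat map gives the deviation of each array (columns) from the mean of its day, on the log2 scale, for each measured proteoglycan (rows), with blue for lower and red for higher. The column of Day 10 replicate 3 is below 0 throughout, down to -2.16 for Lum.

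Genes of the family lie in clusters, and neighbours had different calls, though the difference between neighbours was not itself tested. In the RefSeq annotation Dcn and Lum are adjacent protein-coding genes, and so are Aspn, Omd and Ogn in that order. Dcn fell from Day 10 to Day 28 and Lum rose from Day 2 to Day 28, with no call for Lum from Day 10 to Day 28. Kera, the keratocan gene on the other side of Lum, did not pass between Day 2 and Day 28 (-0.11, limma adjusted p = 0.789). Omd rose while Aspn and Ogn on its sides did not pass, nor did Ecm2, the gene next to Aspn (-0.50, adjusted p = 0.11), or Nol8, the gene next to Ogn (0.08, adjusted p = 0.872). Beside Fmod, Btg2 differed by -0.06 (adjusted p = 0.875). Haus7, the gene next to Bgn, fell by 0.62 (adjusted p = 0.0316). To set the start regions of the 3 neighbours and of Fmod side by side, the 250 bases before each start site are given as held by RefSeq for GRCm38.p6, all on the plus strand, at chr13:49544193-49544442 for Aspn, chr13:49582212-49582461 for Omd, chr13:49607765-49608014 for Ogn and chr1:134037004-134037253 for Fmod. Capitals mark matches, on either strand, to TATAAA, the TATA box, or TGTGGT, a core of Runx binding.
Aspn: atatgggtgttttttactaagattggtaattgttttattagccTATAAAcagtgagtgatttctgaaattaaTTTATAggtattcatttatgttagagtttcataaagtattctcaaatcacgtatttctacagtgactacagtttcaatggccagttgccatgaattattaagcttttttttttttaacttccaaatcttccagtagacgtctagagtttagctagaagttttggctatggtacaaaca
Omd: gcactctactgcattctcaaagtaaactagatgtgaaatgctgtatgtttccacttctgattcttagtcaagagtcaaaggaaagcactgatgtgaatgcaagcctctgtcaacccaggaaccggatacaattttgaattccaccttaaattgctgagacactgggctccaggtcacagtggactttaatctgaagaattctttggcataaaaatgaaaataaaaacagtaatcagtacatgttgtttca
Ogn: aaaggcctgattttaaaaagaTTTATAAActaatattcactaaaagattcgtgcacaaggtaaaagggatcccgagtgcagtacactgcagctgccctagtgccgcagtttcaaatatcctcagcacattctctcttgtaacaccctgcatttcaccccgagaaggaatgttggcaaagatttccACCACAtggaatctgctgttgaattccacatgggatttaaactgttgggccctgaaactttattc
Fmod: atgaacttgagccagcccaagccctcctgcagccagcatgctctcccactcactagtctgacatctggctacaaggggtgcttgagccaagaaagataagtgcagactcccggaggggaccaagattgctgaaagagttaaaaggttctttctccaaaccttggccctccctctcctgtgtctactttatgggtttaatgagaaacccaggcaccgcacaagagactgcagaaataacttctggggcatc
The windows of Omd and Fmod held neither motif, and none of the 4 held the AP-1 motif TGANTCA. Those of Bgn, which was not called, and of Prelp, which had no row, are not printed and held none of these motifs either. Aspn held TATAAA at 207 bases before the start and on the other strand at 178, and Ogn held it on both strands in overlap at 229 and 227, with TGTGGT on the other strand at 65. Of the 32851 RefSeq windows of the same length, 12.4% held the TATA box, 14.0% the Runx core and 6.75% the AP-1 motif. A match describes letters, not a bound site. Windows were at hand for 6 of the 8 members, without Dcn and Lum.

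Among other genes of the same family, 5 of 10 had a row, and 0 passed between Day 2 and Day 28 in limma, with 1, Ecm2, at an unadjusted p under 0.05, as were 3196 of all 17504 rows. Their log2 ratios stayed close to the reference, with day means of -0.04 to 0.58 for Kera, Epyc, Optc, Chad and Ecm2. Large and cell-surface proteoglycans had 5 rises and 1 fall among 23 genes, with a median of 0.10, and 4 rises and 2 falls after quantile normalization. Of all rows, 5.69% were called between Day 2 and Day 28. Sdc2, a syndecan of the cell surface, rose by 1.81 (limma adjusted p = 5.43e-05), Srgn, the serglycin of secretory granules, rose by 1.72 (adjusted p = 0.00221), and Vcan, the large matrix proteoglycan versican, fell by 1.42 (adjusted p = 0.0113). The other row of Sdc2 and that of Vcan did not pass, at 0.43 (adjusted p = 0.289) and -0.09 (adjusted p = 0.863).

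Enzymes that build the sugar chains changed in part between Day 2 and Day 28, where 5.69% of all rows were called. Among 13 measured genes for the linkage region and for chondroitin and dermatan sulfate, 3 rose and none fell (median 0.17), and after quantile normalization 2 rose and 1 fell. Chst15 and Chst7, sulfotransferases for chondroitin sulfate, rose by 1.45 and 1.05 (limma adjusted p = 0.00838 and 0.00861), and Chpf2, a chondroitin polymerizing factor, by 0.52 (adjusted p = 0.0495), a call lost after quantile normalization and with arrays scaled to equal spread. Of 6 genes for keratan sulfate, 2 rose and 1 fell (median 0.19), and after quantile normalization 1 rose and 1 fell. Chst1, the keratan sulfate galactose sulfotransferase, fell by 2.00, from -1.42 ± 0.13 on Day 2 to -3.42 ± 0.17 on Day 28 (SD, n = 3, limma adjusted p = 1.62e-04). Chst2, a sulfotransferase for N-acetylglucosamine, rose by 1.00 (adjusted p = 0.0429), lost after quantile normalization (adjusted p = 0.0516), and B3gnt2, which extends lactosamine chains, rose by 0.80 (adjusted p = 0.00545).

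Between Day 2 and Day 28, 5.69% of all rows were called (3.68% higher, 2.01% lower). Most collagens and most proteins that act on the fibril did not pass there, though a larger share of each was called than of all rows. The lists were chosen with earlier results of these data known, so these shares are no test of an excess. Of 15 collagen chains 3 rose and none fell, with a median difference of 0.57, and after quantile normalization 2 rose and 1 fell, with a median of 0.17. Col24a1, a fibrillar collagen of bone, rose by 2.44 (limma adjusted p = 3.99e-06), Col5a3, a chain of type V collagen, by 1.79 (adjusted p = 4.43e-05), and Col11a1, a chain of type XI, by 1.79 (adjusted p = 0.00111). The call of Col11a1 was lost after quantile normalization (0.52, adjusted p = 0.438). Col1a1, the main chain of bone collagen, had 2.52 ± 0.19 on Day 2 and 2.69 ± 0.16 on Day 28. Of 20 genes for processing and crosslinking, 6 rose and 2 fell (median 0.27), which became 3 and 2 after quantile normalization and 4 and 2 with arrays scaled to equal spread. Mmp13, collagenase 3, rose by 7.18, Htra1, a secreted serine protease, by 2.58 (adjusted p = 5.08e-06), and Pcolce2, an enhancer of procollagen processing, fell by 2.28 (adjusted p = 0.00598). Of 17 growth factors and receptors that these proteoglycans are known to bind or modulate, 2 rose and 1 fell (median 0.11, or -0.03 after quantile normalization). Tgfb1 and Tgfb2 rose by 1.79 and 1.02 (adjusted p = 9.22e-04 and 0.00308), and Igf1r, the receptor of insulin-like growth factor, fell by 0.88 (adjusted p = 0.00624), with its other row at -0.90.

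**Figure D5:**
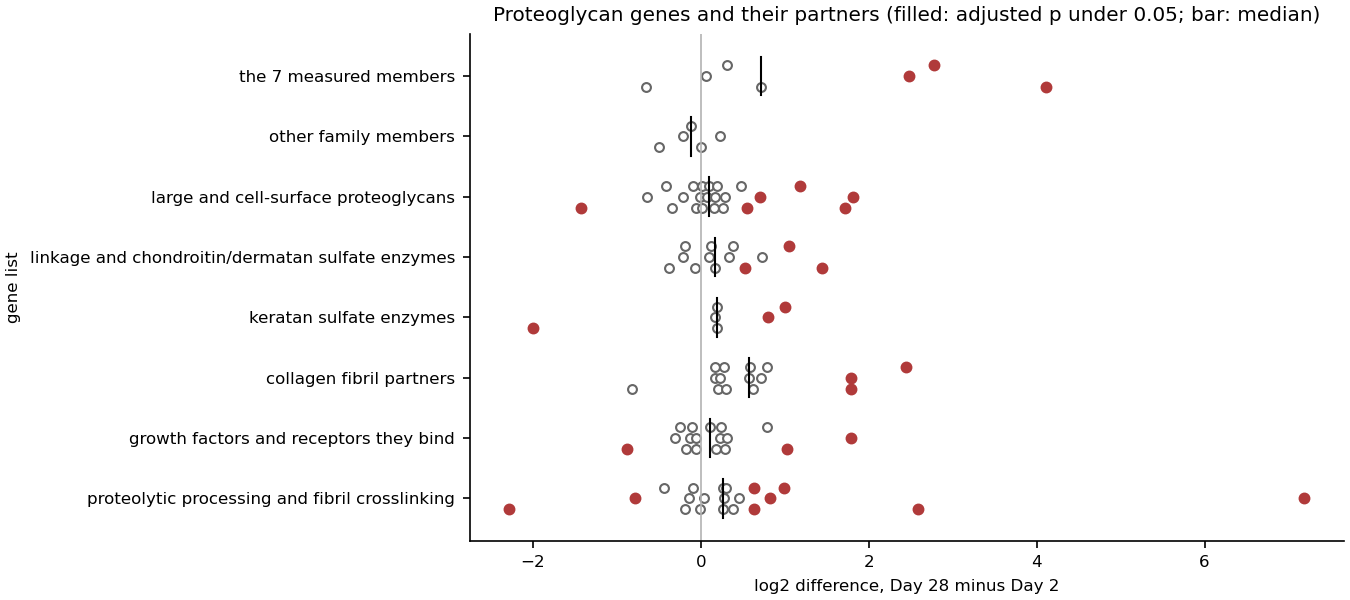
Each point is a gene, placed by its log2 difference of Day 28 minus Day 2 (horizontal axis) in the list it belongs to (vertical axis), filled where the adjusted p was under 0.05, with a bar at the list's median. The medians run from -0.11 for the other family members to 0.72 for the 7 measured members, and Mmp13 is the point farthest right at 7.18.

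Markers of other cell types, of osteoblasts and of cell division were read beside the proteoglycans. Between Day 2 and Day 28, 5.69% of all rows were called, and 3196 of 17504 had an unadjusted p under 0.05. Of 4 tendon markers with a row, 0 passed between Day 2 and Day 28 in limma and 0 had an unadjusted p under 0.05, and the median on each array lay between -0.22 and 0.28. The tendon gene with the largest difference was Tnmd, the tenomodulin gene, at 0.30 (adjusted p = 0.743). Of 10 chondrocyte markers 1 rose, Cnmd, the chondromodulin gene (1.63, adjusted p = 5.6e-04), with array medians of -0.08 to 0.59, and after quantile normalization 1 rose and 1 fell. Of 6 adipocyte markers 0 passed in limma and 0 had an unadjusted p under 0.05, with Fabp4, a fatty acid carrier, at -0.23 and array medians of -0.22 to 0.14. Of 5 macrophage and osteoclast markers 1 rose, Ctsk, the cathepsin K gene (2.63, adjusted p = 0.00286), with array medians of -1.57 to -0.39. Of the 7 osteoblast markers 1 passed, Dmp1, a matrix protein of osteocytes, which rose by 2.52 (adjusted p = 9.64e-05). All 7 had a difference above 0, 3 of them at an unadjusted p under 0.05 in limma. Their median difference was 0.80, or 0.20 after quantile normalization. The 9 cell division genes had a median difference of -0.73, 0 past the threshold in limma and 4 at an unadjusted p under 0.05, and Cenpf, a kinetochore protein, had the largest, -1.33 (adjusted p = 0.131). The part of any of these in the courses of the proteoglycans was not tested.

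For each of the 4 members past the F test, the most similar courses were sought among 845 other named rows that passed it, by Pearson's correlation over the 12 arrays, as a description only. Nearest to Lum were Larp6, which binds collagen messenger RNA (0.963), Rhobtb1 (0.949) and Socs2, a suppressor of cytokine signalling (0.943). Nearest to Omd were Pros1, which encodes protein S of the clotting system (0.982), Mmp13 (0.966) and Islr (0.965). Nearest to Fmod were Tpst1, a tyrosylprotein sulfotransferase (0.941), Scg2, a secretogranin (0.931), and Lbh (0.926). Nearest to Dcn were Abce1, a ribosome recycling factor (0.915), Rhoj, a small GTPase (0.895), and Cd80, a costimulatory ligand of T cells (0.892). Abce1, Rhoj and Cd80 had their lowest means on Day 28, at -1.33, 1.19 and -0.35, as Dcn did at 1.34 ± 0.24. They were picked for likeness to Dcn on these arrays, so this is no separate result. Between Day 2 and Day 28 Abce1 passed (-0.52, limma adjusted p = 0.0346). Rhoj (-0.13, adjusted p = 0.69) and Cd80 (-0.35, adjusted p = 0.283) did not. All these correlations share the same 12 arrays with 3 arrays a day, and the parts between and within days were not separated.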

How the data were processed

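MC3T3-E1 RNA of 4 days, 3 arrays each, was analysed from the value table that the authors deposited, which holds 1 log2 ratio of cells and reference per array and row. Of software, the submitters' processing notes give only R. How background was corrected and values normalized, the log base (taken as log2) and the ratio's direction are not stated in any source used here. Column medians lay within 0.0132 of 0, and no value was missing. With no spot intensities used, dim and bright spots enter alike, and the number of arrays limits the precision.

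Rows were named from the platform's annotation, with symbols updated through RefSeq GRCm38.p6 by gene identifier (14010 of 17664 rows had 1 gene, 13 several and 3641 none, and 13908 matched RefSeq). Repeated spots of 10 genes (170 spots) were averaged, which left 17504 rows, and no filter was applied. Arrays were centred on their median, and limma version 3.58.1 in R version 4.3.3 was fitted with 1 mean per day on all 12 arrays (8 residual and 5.23 prior degrees of freedom), with Benjamini-Hochberg adjustment over all rows. The script was tested on simulated data. Where a gene had several rows, lists used the one with the lowest number. Other genes were named by rule: from each list up to 3 genes with the largest differences past the threshold between Day 28 and Day 2, or otherwise the 1 with the largest difference, together with adjacent genes and the 3 most correlated genes. Col1a1, Sp7, Mepe, Phex, Epyc and Chad were named outside that rule, after their values were seen. The members and lists were chosen with earlier results of these data known. Same-numbered arrays deviated from their day means together (correlation over 0.1) in 2 of 18 pairs, so replicate numbers were not taken to pair the arrays. Alternatives covered scaling, weights, a replicate block, the rows and arrays fitted, the variance prior and leaving out each array.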

Additional observations from a re-analysis of the deposited data

How the results depend on the processing

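Of 924 values of the 7 members under alternatives, 831 kept both sign and side of the threshold, 17 lost a call, 19 gained one and 57 changed sign. None of the last was a call before, and 2 became one, Ogn for Day 28 against Day 2 after quantile normalization and for Day 10 against Day 2 without both arrays that stood apart (adjusted p = 0.0407 and 0.0364). The number of members called moved as follows. After quantile normalization 5 were called for Day 28 against Day 2 and 1 (Dcn) for Day 28 against Day 5, where 1004 and 709 of all rows were called against 996 and 824. With only the arrays compared, 5 were called for Day 28 against Day 2, 2 for Day 10 against Day 2 and 1 (Lum) for Day 5 against Day 2, while all rows called went from 996 to 1549, from 454 to 148 and from 59 to 37. Day 5 against Day 2 had 1 call with array weights and 3 without both arrays that stood apart (66 and 231 of all rows), and Day 10 against Day 5 had 1 with arrays scaled to equal spread (32 of all rows against 26). Leaving out 1 array gave 2 (without Day 2 replicate 3) to 5 (without Day 10 replicate 3) calls for Day 10 against Day 2, 0 to 1 for Day 10 against Day 5 and 0 to 2 for Day 5 against Day 2. All rows called for Day 10 against Day 2 were 196 and 650 in those fits, against 454. Without Day 10 replicate 3 they were 83 against 26 for Day 10 against Day 5, and 160 against 59 for Day 5 against Day 2. With a replicate block, 3 members were called for Day 28 against Day 2 and 4 for Day 10 against Day 2, and no call of a member changed, while 697 rows passed the F test against 931. The cause of these changes was not tested. Spots near background cannot be recognised in these values.

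Sign changes were these. Quantile normalization gave -0.0197, -0.34 and -0.36 for Aspn (Day 10 against 2, 28 against 10 and 28 against 2), -0.0914 for Bgn (28 against 2), -0.0909 for Dcn (10 against 5), -0.25 for Fmod (28 against 10), -0.26 and -0.19 for Lum (28 against 10 and 5), and -0.15, -1.05 and -0.37 for Ogn (28 against 10, 28 against 2 and 5 against 2). Equal spread gave 0.14, -0.0128 and 0.13 for Aspn (10 against 5, 28 against 10 and 28 against 5), -0.0641 for Fmod (28 against 10), and -0.0195, -0.15 and -0.10 for Ogn (28 against 10, 28 against 2 and 5 against 2). Array weights gave 0.10 and -0.17 for Aspn (10 against 5 and 28 against 10), -0.10 for Fmod and -0.0522 for Lum (28 against 10), and 0.37, 0.0889 and -0.31 for Ogn (10 against 2, 10 against 5 and 28 against 10). Without both arrays that stood apart the values were 0.22 and -0.39 for Aspn (10 against 5 and 28 against 10), -0.26 for Fmod and -0.43 for Lum (28 against 10), and 0.60, 0.16 and -0.54 for Ogn (10 against 2, 10 against 5 and 28 against 10).

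Leaving out 1 array at a time gave, for Day 28 against Day 10, -0.39 to 0.54 for Aspn, -0.10 to 0.0136 for Bgn, -0.26 to 0.56 for Fmod, -0.43 to 1.22 for Lum and -0.54 to 0.42 for Ogn. For Day 10 against Day 5 it gave -0.56 to 0.36 for Aspn, -0.10 to 0.27 for Dcn, -0.38 to 1.28 for Lum and -0.58 to 0.38 for Ogn. For the others it gave -0.16 to 0.0446 for Aspn and -0.38 to 0.0156 for Ogn (28 against 5), -0.0363 to 0.11 for Ogn (28 against 2), -0.37 to 0.60 for Ogn (10 against 2), and -0.28 to 0.0239 for Bgn and -0.17 to 0.85 for Fmod (5 against 2).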
